A study of Mus musculus with 18 samples.

Results

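The genes described here are 39 mesenchymal and matrix genes other than collagens, listed by symbol. They encode glycoproteins and elastic fibre proteins, matricellular proteins, proteoglycans and matrix-building enzymes. Others encode a proteinase and its inhibitors, transcription regulators, and surface or secreted proteins typical of mesenchymal cells. All 39 were chosen with earlier results of these data known, so their shares beside all genes describe a list picked with these data in view. Of these, 37 had a probe set (the group of short probes that reads 1 transcript) that carried their symbol alone, and all 37 were among the 14432 genes tested. Loxl2, a lysyl oxidase relative, was read only by 2 probe sets that also carry another gene's symbol. These are quoted where named but enter no count, and 1 further member is not analysed here. The arrays came from a differentiation series of mouse C57/B6 cells, with 3 Affymetrix arrays in each of 6 groups: Hmgn1+/+ and Hmgn1-/- cells at the stage of embryonic stem (ES) cells, of neural progenitors or of neurons. Hmgn1 encodes a nucleosome-binding chromatin protein, and the comparison of genotypes asks which genes differ when both of its alleles are disrupted. All ES cells grew in medium with serum replacement and LIF, a cytokine that maintains pluripotency, either on growth-arrested embryonic fibroblasts or without such feeders, and the labels do not say which arrays had which. The progenitors and neurons of both genotypes were derived from ES cells with a commercial kit designed for dopaminergic neurons. Arrays of 1 group are labelled as biological replicates, with no word on whether they were separate cultures, so the p-values measure only the spread between these arrays, which may be technical. Nor do the labels say how many ES cell lines stood for a genotype, so a genotype difference here cannot be told apart from a difference between lines.

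The extracellular matrix is the protein and sugar network around cells, and fibroblasts and other mesenchymal cells secrete most of it. Fibronectin, elastic fibres and proteoglycans form its scaffold, lysyl oxidases cross-link it, and matrix metalloproteinases and their inhibitors set its turnover. Matricellular proteins such as thrombospondins, tenascin and the CCN family add little strength but modulate signals between matrix and cell, and several are known targets of TGF-beta and of the mechanically regulated coactivators YAP and TAZ. Cells of the neural lineage make some of these genes too, and cultures differentiated from ES cells commonly hold cells of more than 1 lineage. In such bulk samples, fewer cells of a type and less RNA per cell cannot be told apart.

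Within a group the arrays correlated at 0.995 to 0.998 over all tested genes, between the genotypes of a cell type at 0.99 to 0.994 and between cell types at 0.645 to 0.87. Hmgn1 itself was measured on every array and was lower in -/- cells, by log2 changes of -0.31 (ES), -0.33 (progenitors) and -0.32 (neurons), each with an SE of 0.05, and no overlap between genotypes. What its probes read of the disrupted allele is not known here. The ES label was borne out by 6 pluripotency markers, summing to 36891.6 to 39478.6 intensity units on ES arrays against 1254.6 to 1311.5 in +/+ and 778.2 to 870.2 in -/- progenitors. The 6 neural progenitor markers separated the stages little by sum: 6978.5 to 7483.1 in ES cells, 7488.4 to 8693.6 in progenitors and 8459.4 to 9341.6 in neurons. From ES cells to progenitors, 5 of them were called higher and 1 lower in each genotype. Neuronal markers summed to 23112.9 to 26399.3 in neurons against 5317.6 to 5666.9 in progenitors, whereas the dopaminergic marker Slc6a3 (the dopamine transporter) stayed under the background bound on every +/+ neuron array and read 43.1 to 67.5 on -/- ones. That bound was the 40th percentile of each array, an intensity of 36.6 to 38.7. Replicate 2 of the +/+ neurons read low for the genes described here: it was the lowest array of its group for 32 of 37 members. Among the -/- neurons, replicate 1 was the highest for 28 members and replicate 2 the lowest for 23. The same counts were not made over all genes, so they are not known to be particular to the members.

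In +/+ cells, the step from ES cells to progenitors raised 32 of 37 members, lowered 2 and left 3 not passing an adjusted p of 0.05 (limma, Benjamini-Hochberg over all tested genes). The median log2 change of the members was 2.27, against 0.022 for all genes, of which 41.3% were called higher and 37.2% lower. All 4 proteoglycans and all 7 matricellular proteins rose. By group mean, 22 of 37 members were highest in -/- progenitors, 10 in -/- neurons, 4 in +/+ progenitors and 1 in -/- ES cells. ES cells of either genotype were lowest for 32 (13 in +/+ and 19 in -/-). How all tested genes were spread over the groups was not counted.

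**Figure D1:**
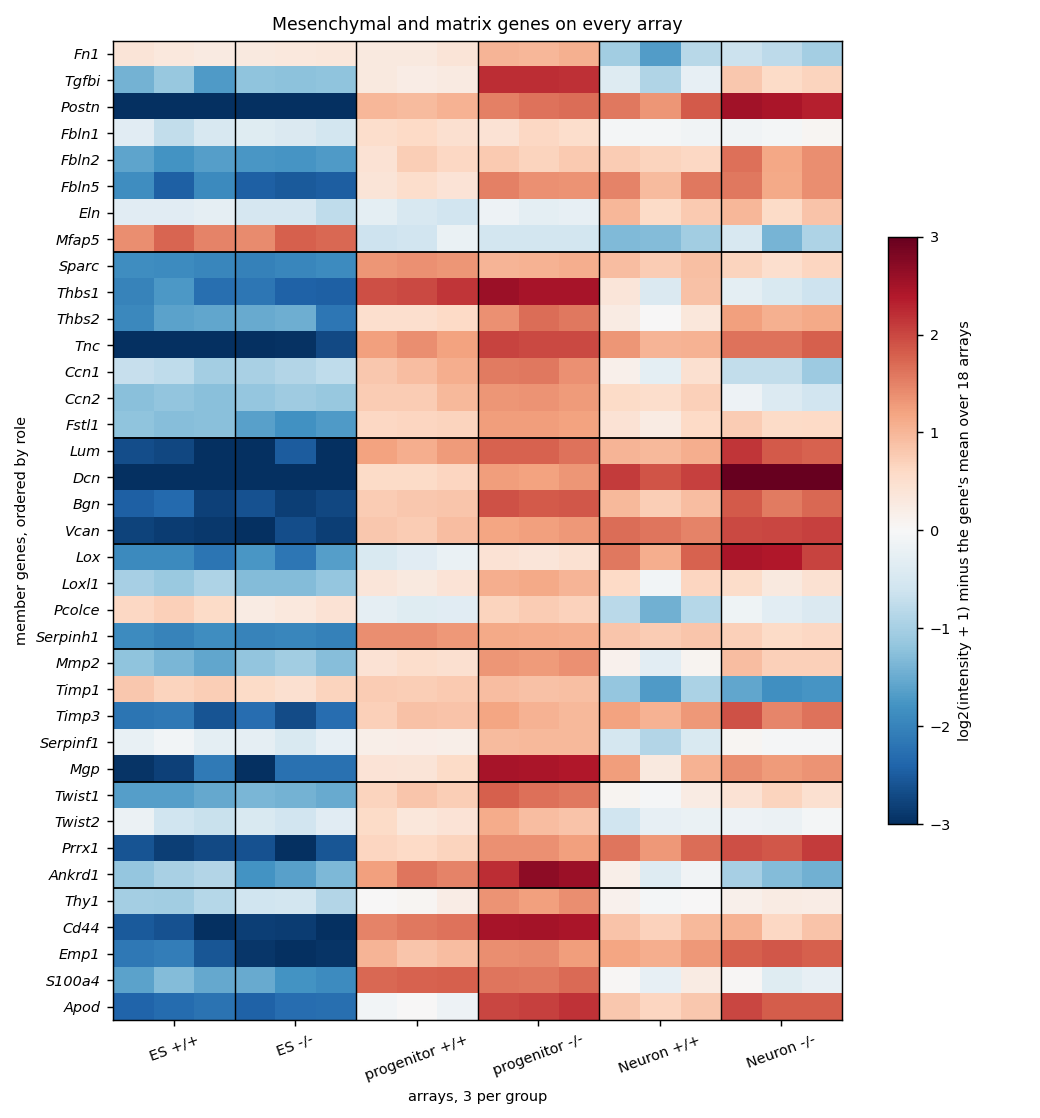
Each row is 1 of the 37 measured members, ordered by role, and each column is 1 of the 18 arrays. Colour gives log2(intensity + 1) minus the gene's mean over the arrays. Most rows are blue in ES cells and reddest in -/- progenitors or -/- neurons. By group mean, Mfap5, Pcolce, Timp1, Fn1 and Serpinf1 are lowest in neurons, and Fbln1, Sparc, Serpinh1 and S100a4 highest in +/+ progenitors. Mfap5 is highest in -/- ES cells.

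Tenascin C, encoded by Tnc and a matricellular protein of embryonic mesenchyme and glia, read 42.3, 46.1 and 39 in +/+ ES cells and 883.6, 996.8 and 872.2 in +/+ progenitors. Cd44, the hyaluronan receptor, read 57.3, 54.0 and 41.4 in ES cells and 944.3, 1001.3 and 1040.2 in progenitors. Decorin, encoded by Dcn, a small proteoglycan that binds collagen fibrils, read 28.7, 26.1 and 42.2 and then 592.5, 592.4 and 621.6. The groups lay far apart for all of them, with log2 changes of 4.40 for Tnc (SE 0.11, adjusted p 1.34e-15), 4.28 for Cd44 (SE 0.14, adjusted p 5.07e-14) and 4.21 for Dcn (SE 0.14, adjusted p 6.24e-14). Lumican (Lum), another fibril-binding proteoglycan, was under the background bound on all +/+ ES arrays (33.9, 32.1 and 17.0) and reached 512.4, 468.6 and 539.4 in progenitors. Measured from the bound, its rise was at least 12.9-fold. Prrx1, a homeobox factor of limb and craniofacial mesenchyme, was likewise under the bound in +/+ ES cells and at least 5.43-fold higher in progenitors by the probe set used.

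The members that fell were Mfap5, a microfibril protein, and Pcolce, which enhances the processing of procollagen. Mfap5 read 150.6, 193.0 and 159.9 in +/+ ES cells and 36.3, 37.6 and 49.0 in progenitors, a log2 change of -2.01 (SE 0.18, adjusted p 1.90e-08). Pcolce read 1728.9, 1825.2 and 1669.9 in +/+ ES cells and 921.8, 870.5 and 886.3 in progenitors, a change of -0.96 (SE 0.12, adjusted p 1.60e-06). Both sets of arrays were apart. Fibronectin (Fn1, log2 change 0.01), the metalloproteinase inhibitor Timp1 (0.03) and elastin (Eln, -0.13) did not pass. For Fn1 the value depends on the probe set: averaged over all its probe sets that passed the filter, the change was -1.05 in +/+ cells.

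The same step in -/- cells raised 36 members and lowered Mfap5 (log2 change -2.2, SE 0.18), where 39.8% of all genes were called higher and 38% lower, and the members' median was 3.11 against -0.002 for all genes. The 36 include Fn1 (0.71), whose other probe set was called the opposite way (-1.3) and whose mean over probe sets was -0.29. The +/+ and -/- steps share no arrays. Among the members with at least 1 array above the bound in each group, Cd44 (5.49, SE 0.14), Tnc (4.96, SE 0.11) and Thbs1 (4.85, SE 0.22) changed most. Postn, which encodes the secreted adhesion protein periostin, and Mgp, which encodes an inhibitor of matrix calcification, were under the background bound in -/- ES cells, and their rises were at least 30.4-fold and at least 24.9-fold. Pcolce went the other way from the +/+ cells, from 1326.3, 1382.4 and 1497.5 in -/- ES cells to 1773.0, 1888.6 and 1800.7 in -/- progenitors (log2 change 0.38, SE 0.12, adjusted p 0.00981). Its arrays did not overlap in either genotype.

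In ES cells few of the tested members differed between genotypes by the probe sets used. Of 37 members, 1 was higher and 3 were lower in -/- cells, against 10.5% and 4.32% of all tested genes, and the median of the members was -0.05 against 0.04 for all genes. None of the 4 calls reached a 2-fold change. Probe sets outside these counts differed too. Those of Loxl2, shared with another gene, gave -0.83 and -1.0 (adjusted p 0.00016 and 0.000344 over all probe sets). For Tgfbi (0.5), Timp3 (0.45) and Vcan (-0.4) another probe set passed where the one used did not. So did a probe set of Thbs1 shared with another gene (-0.72, adjusted p 0.0443 over all probe sets). Emp1, a tetraspan membrane protein, read 150.9, 158.3 and 112.8 in +/+ and 88.6, 72.5 and 86.7 in -/- ES cells, a log2 change of -0.75 (SE 0.11, adjusted p 0.000449). Fstl1, a secreted follistatin-like glycoprotein, read 1000.5, 949.2 and 977.9 in +/+ and 744.4, 661.6 and 718.2 in -/- ES cells (log2 change -0.46, SE 0.08, adjusted p 0.00115). The genotypes did not overlap for either gene, and both genes went the other way in progenitors, as given further on.

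The other calls in ES cells were weaker. Ankrd1, a nuclear ankyrin-repeat protein induced by stretch and by YAP, read 36.9, 42.4 and 45.0 in +/+ and 23.6, 26.4 and 32.2 in -/- ES cells (log2 change -0.59, SE 0.16, adjusted p 0.0249). All 3 -/- values lie under the background bound, and measured from the bound the difference shrank to at least 1.09-fold. Thy1, a membrane-anchored glycoprotein of neurons and fibroblasts, read 52.9, 52.6 and 59.5 in +/+ and 71.2, 74.2 and 59.1 in -/- ES cells, so the groups overlapped (log2 change 0.30, SE 0.08, adjusted p 0.0268). The Ankrd1 call was lost without +/+ replicate 2 (adjusted p 0.0536) or 3 (0.0838) or -/- replicate 1 (0.0824) or 2 (0.0662), and the Thy1 call without +/+ replicate 1 (0.0838) or 2 (0.07) or -/- replicate 1 (0.0772) or 2 (0.108). With only the ES arrays in the fit, Emp1 had an adjusted p of 0.0529, and the count of members called fell to 1. It was 2 without -/- replicate 1 and 2 without -/- replicate 2.

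In progenitors the genes moved together: 26 of 37 members were higher in -/- cells, 2 were lower and 9 did not pass. That is 70.3% higher and 5.41% lower among the members, against 7.81% and 9.19% of all tested genes. The median log2 change of the members was 0.66 against 0.002 over all genes, and 8 of the called members differed by 2-fold or more. Leaving out any of the 6 progenitor arrays gave 26 to 28 calls. No member had probe sets with called genotype differences of opposite sign, though of 24 members with several probe sets only 18 had all of them on 1 side of 0 in progenitors.

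**Figure D2:**
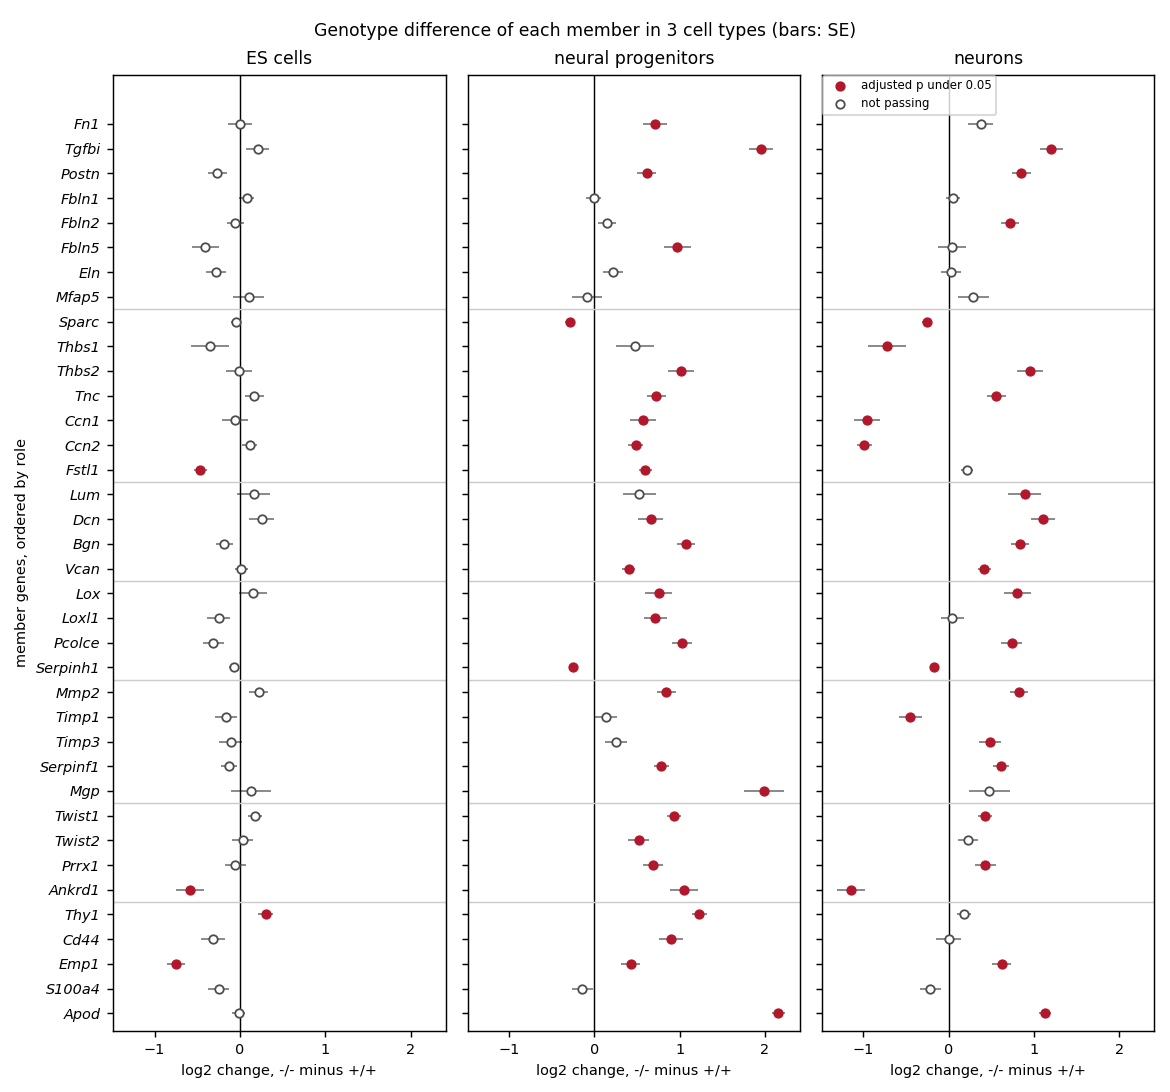
Each point is the fitted log2 difference, -/- minus +/+, of 1 member in ES cells, progenitors and neurons, with its SE as a bar. Filled points pass an adjusted p of 0.05. Points cluster near 0 in ES cells, lie mostly to the right in progenitors, and split in neurons, where Ankrd1, Ccn1, Ccn2 and Thbs1 lie on the left.

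The largest difference was in Apod, which encodes apolipoprotein D, a secreted lipid carrier made by fibroblasts and glia. It read 309.6, 328.5 and 290.7 in +/+ and 1319.4, 1361.5 and 1471.0 in -/- progenitors, 4.46-fold higher (log2 change 2.16, SE 0.08, adjusted p 2.80e-11). Every -/- array lay far above every +/+ array. Mgp read 233.4, 230.4 and 265.2 in +/+ and 986.4, 971.2 and 941.4 in -/- progenitors, 3.97-fold higher (log2 change 1.99, SE 0.24, adjusted p 1.37e-05). Tgfbi, a TGF-beta-induced adhesion protein of the matrix, read 277.5, 265.7 and 275.4 in +/+ and 1062.2, 1069.3 and 1039.8 in -/- progenitors, 3.86-fold higher (log2 change 1.95, SE 0.14, adjusted p 4.96e-08). Neither gene's groups overlapped, and the 4 probe sets of Tgfbi gave log2 changes from 1.60 to 2.10.

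Among the glycoproteins and elastic fibre proteins, 4 of 8 rose: Tgfbi, Fbln5 (0.97, SE 0.16), Fn1 (0.71, SE 0.14) and Postn (0.61, SE 0.11). Fibulin 5, encoded by Fbln5, guides elastic fibre assembly, and Fn1 encodes the main adhesive glycoprotein of early matrix. Fn1 read 2412.8, 2421.8 and 2574.4 in +/+ and 4004.4, 3946.6 and 4142.6 in -/- progenitors, with no overlap. Fbln1 (-0.01), Fbln2 (0.15), Eln (0.22) and Mfap5 (-0.09) did not pass, and of these Fbln1, Fbln2 and Mfap5 overlapped between genotypes.

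Of the 7 matricellular members, 5 rose. Thrombospondin 2 (Thbs2), an inhibitor of angiogenesis, read 221.8, 218.7 and 233.6 in +/+ and 403.7, 497.4 and 468.3 in -/- progenitors (log2 change 1.01, SE 0.15, adjusted p 0.000137). Tnc rose by 0.73 (SE 0.11), Fstl1 by 0.60 (SE 0.08), Ccn1 by 0.57 (SE 0.15) and Ccn2 by 0.48 (SE 0.09). Ccn1 and Ccn2 encode secreted CCN proteins that bind integrins and are widely used as readouts of YAP. The call of Ccn1 (adjusted p 0.0166) was lost without +/+ replicate 1 (adjusted p 0.0729) or 2 (0.0509) or -/- replicate 1 (0.0571) or 2 (0.0634). Thbs1, which encodes an activator of latent TGF-beta, was higher on every -/- array (1703.8, 1610.8 and 1614.6, against 1107.8, 1150.7 and 1287.8), but its change of 0.48 (SE 0.22) had an adjusted p of 0.176.

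The proteoglycans and the enzymes that build matrix went mostly the same way. Biglycan (Bgn), a small proteoglycan related to decorin, read 913.2, 943.0 and 970.7 in +/+ and 2029.4, 1953.9 and 1970.6 in -/- progenitors, 2.11-fold higher (log2 change 1.07, SE 0.10, adjusted p 1.29e-06). Decorin rose by 0.66 (SE 0.14) and versican (Vcan), a large hyaluronan-binding proteoglycan, by 0.40 (SE 0.08). Lumican had 0.53 (SE 0.19, adjusted p 0.0784), with every -/- array above every +/+ array. Both tested cross-linking enzymes rose, Lox by 0.75 (SE 0.16) and Loxl1 by 0.71 (SE 0.14), and Pcolce rose by 1.03 (SE 0.12). The shared probe sets of Loxl2 gave 0.15 and -0.04 and did not pass. The other probe set of Loxl1 gave -0.05, and the mean of its probe sets 0.33 (adjusted p 0.017).

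Sparc and Serpinh1 went the other way. Sparc encodes a collagen-binding matricellular protein and Serpinh1 the chaperone HSP47, which folds collagen in the endoplasmic reticulum. Sparc read 12768.4, 13100.6 and 12825.6 in +/+ and 10296.4, 10560.6 and 10813.7 in -/- progenitors (log2 change -0.29, SE 0.06, adjusted p 0.00181). Serpinh1 read 6797.2, 6819.2 and 6420.7 in +/+ and 5745.7, 5604.4 and 5548.9 in -/- progenitors (log2 change -0.25, SE 0.05, adjusted p 0.00335). Both differences were small, and in both the arrays of the genotypes were apart. Both genes had risen steeply from ES cells in either genotype, by 3.24 and 3.28 in +/+ and by 3.0 and 3.11 in -/- cells, though another probe set of Sparc had a call of the opposite sign for that step in +/+ cells, and its mean over probe sets was 2.0 in +/+ and 1.98 in -/- cells. Averaged over probe sets, the genotype difference of Sparc in progenitors was -0.19 (adjusted p 0.0347).

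Of the proteinase, its inhibitors and the calcification inhibitor, 3 of 5 rose. Mmp2, a gelatinase, rose by 0.84 (SE 0.11), Serpinf1, which encodes the secreted serpin PEDF, by 0.79 (SE 0.09), and Mgp as given above. The metalloproteinase inhibitors Timp1 (0.14) and Timp3 (0.25) did not pass. Timp3 depends on the probe set: the others gave -0.09 to 0.33, and the last of these passed (adjusted p 0.00658 over all probe sets). All 4 transcription regulators rose. Ankrd1 read 197.0, 257.3 and 237.9 in +/+ and 393.8, 542.9 and 501.2 in -/- progenitors, 2.07-fold higher (log2 change 1.05, SE 0.16, adjusted p 0.000224). The mesenchymal factors rose by 0.93 for Twist1 (SE 0.08), 0.69 for Prrx1 (SE 0.12) and 0.52 for Twist2 (SE 0.12), and in each gene the -/- arrays lay above all +/+ arrays.

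Of the surface and secreted proteins, 4 of 5 rose. Thy1 read 109.6, 112.7 and 127.0 in +/+ and 277.4, 257.5 and 286.9 in -/- progenitors, 2.34-fold higher (log2 change 1.23, SE 0.08, adjusted p 3.99e-08). Cd44 rose by 0.90 (SE 0.14), from 944.3, 1001.3 and 1040.2 to 1856.0, 1878.1 and 1822.4. Emp1 rose by 0.43 (SE 0.11, adjusted p 0.0112), opposite to ES cells. The Emp1 call was lost without +/+ replicate 2 (adjusted p 0.0533) or -/- replicate 2 (0.0509), and its other probe set gave -0.01 in progenitors, -0.01 in neurons and -0.03 in ES cells. Averaged over both probe sets, its changes were 0.21 (adjusted p 0.0603), 0.31 and -0.39. S100a4, a calcium-binding protein used as a fibroblast marker, had -0.14 and did not pass.

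**Figure D3:**
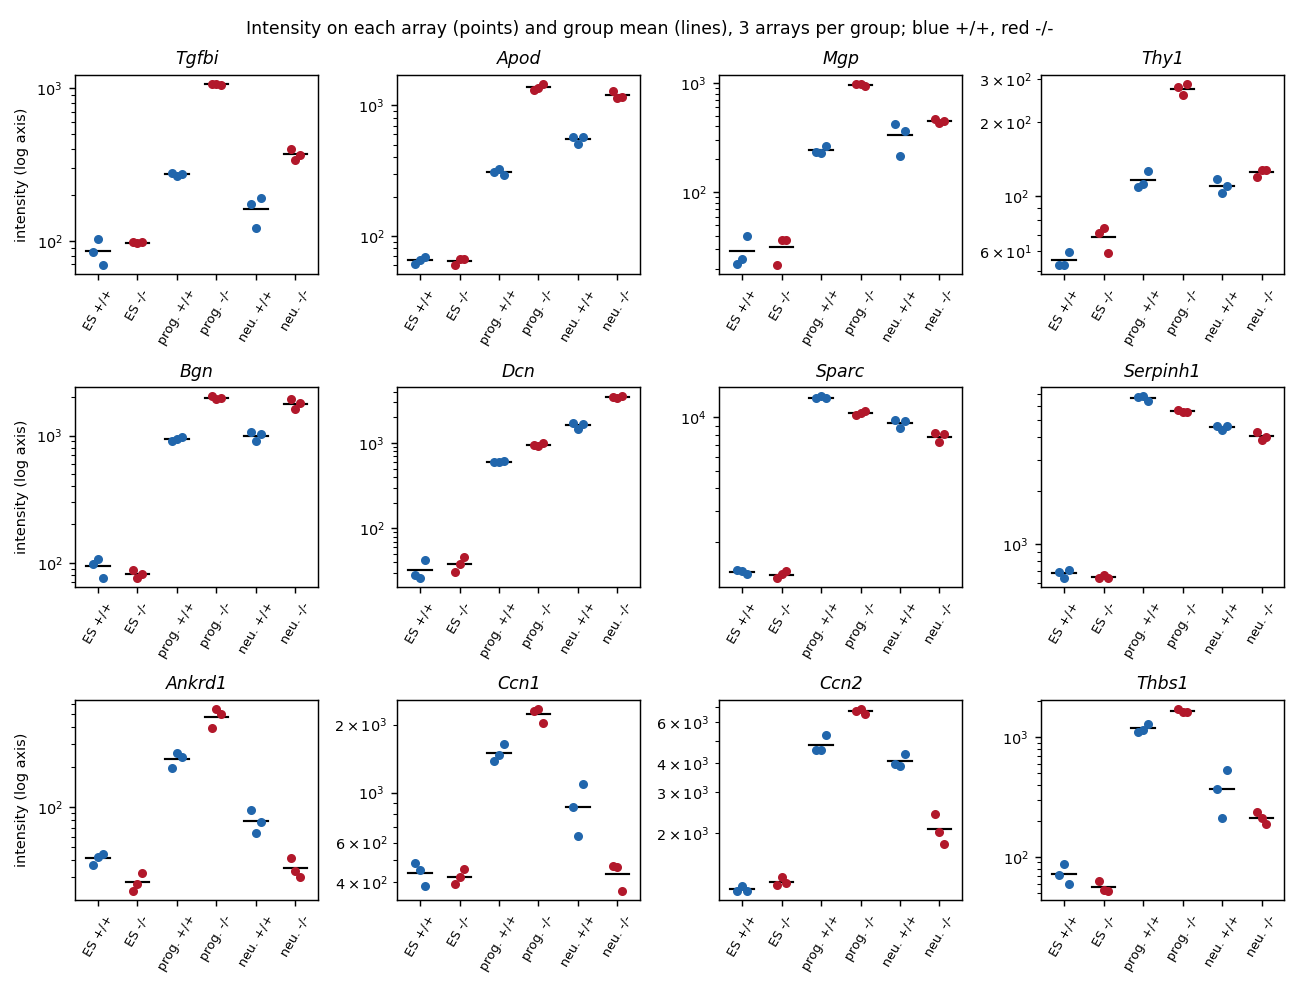
Intensity of 12 members on every array, on a log axis, with the group mean as a line (blue +/+, red -/-). Tgfbi, Apod, Mgp, Thy1 and Bgn are higher on all 3 -/- progenitor arrays than on any +/+ one, Sparc and Serpinh1 are slightly lower, and Ankrd1, Ccn1 and Ccn2 are higher in -/- progenitors but lower in -/- neurons.

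Related genes outside the members were read from lists chosen by function, also with earlier results of these data known. Among 36 other matrix glycoproteins and proteoglycans tested, 13 were higher and 2 lower in -/- progenitors, with a median of 0.29 against 0.002 over all genes. Spon1, an F-spondin, rose by 1.0, Has2, a hyaluronan synthase, by 0.91, and Smoc1, a calcium-binding matricellular protein, fell by 0.95. Of 17 mesenchymal transcription factors tested, 8 were higher and 1 lower (median 0.27), led by Tbx18 (0.90), Foxc1 (0.89) and Foxd1 (0.83). Of 26 matrix receptors, 9 were higher and 3 lower (median 0.19), among them the integrin subunit gene Itga8 (0.78) and the collagen receptor gene Ddr2 (0.65).

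The 36 other matrix-processing enzymes and inhibitors divided: 8 were higher and 11 lower in -/- progenitors, with a median of -0.04. P4ha2, which encodes a subunit of the prolyl hydroxylase that stabilises collagen, fell by 1.85, whereas the proteinase genes Adamts5 and Adam12 rose by 0.92 and 0.87. Of 20 genes of TGF-beta signalling, 7 were higher and 1 lower (median 0.16), with Tgfb3 (0.68) and Inhba (0.64) rising and the co-receptor gene Tgfbr3 falling by 0.71. Of 18 genes of the YAP and TEAD pathway other than members, 3 were higher and none lower (median 0.11), where 7.81% and 9.19% of all genes were. These were Axl (0.54), Amotl2 (0.26) and Tead2 (0.25).

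Markers of other cell types moved with genotype in progenitors. The 6 fibroblast markers summed to 9632.7 to 10064.2 per +/+ array and 14533.4 to 14929.2 per -/- array; Col1a1, Col1a2, Col3a1 and Pdgfrb rose, Pdgfra fell by 1.43, and Fap was under the background bound in both genotypes. The 5 smooth muscle and pericyte markers tested, of 6 listed, summed to 13171.8 to 14659.7 and 19323.5 to 21173.9. Tagln, Cnn1 and Rgs5 rose, Rgs5 from under the background bound on all +/+ progenitor arrays. Of 8 endoderm markers, 5 were lower, among them Sox7 and Sox17 (-1.79 each), Afp was higher (0.51) and 2 did not pass, and their sum was 8596.6 to 8721.6 in +/+ and 3986.6 to 4233.4 in -/- progenitors. Of 6 pluripotency markers, 5 were lower and none higher (median -0.64), with sums of 1254.6 to 1311.5 in +/+ and 778.2 to 870.2 in -/- progenitors. In each of the other marker lists at most 1 gene was called per direction. The part of these cell types in the differences of the members was not tested. In ES cells the fibroblast markers summed to 261.5 to 369.1, and Col3a1, Pdgfrb and Fap were under the bound on every ES array of both genotypes.

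**Figure D4:**
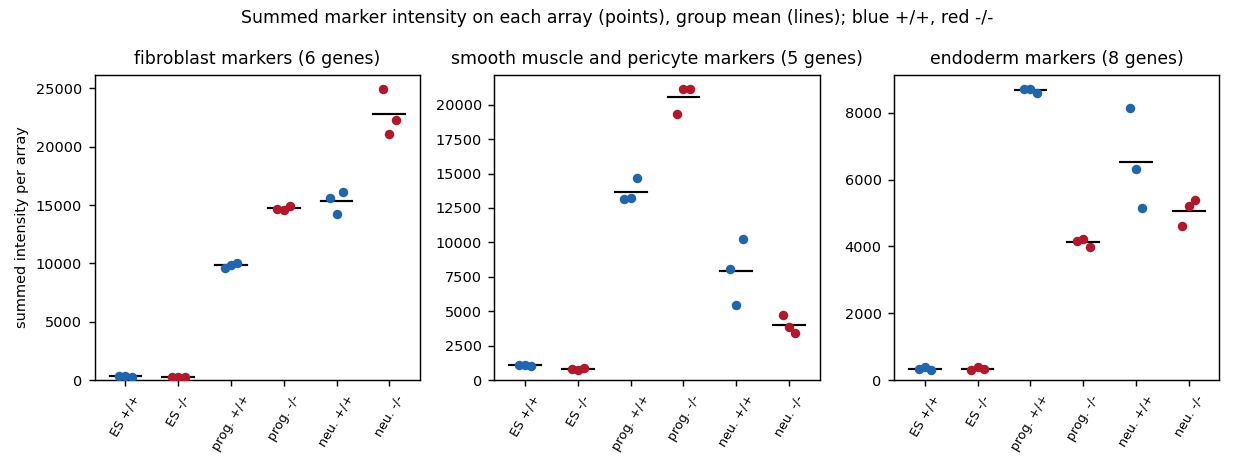
Summed intensity of fibroblast, smooth muscle and pericyte, and endoderm markers on each array, with group means as lines (blue +/+, red -/-). Fibroblast markers are higher on -/- arrays in progenitors and neurons; smooth muscle markers are higher on -/- arrays in progenitors and lower in neurons; endoderm markers are lower on -/- arrays in progenitors, and overlap between genotypes in neurons.

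In neurons the genotype difference had both directions. Of 37 members, 18 were higher and 7 lower in -/- neurons and 12 did not pass, which is 48.6% higher and 18.9% lower, against 5.95% and 7.27% of all tested genes. The median was 0.42 against -0.024 over all genes, and 4 called members differed by 2-fold or more. The progenitor and neuron comparisons share no arrays: 15 members were higher in both, 57.7% of those higher in progenitors and 83.3% of those higher in neurons. Over all tested genes, 270 were higher in both, 24% and 31.5% of the respective calls. The members' shares of 57.7% and 83.3% stand beside 48.6% of all members higher in neurons and 70.3% higher in progenitors. Without +/+ replicate 2, the neuron array that read low, 16 members were higher and 6 lower.

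Tgfbi and Apod were again in front. Tgfbi read 173.8, 122.1 and 191.8 in +/+ and 402.1, 340.3 and 365.5 in -/- neurons, 2.30-fold higher (log2 change 1.2, SE 0.14, adjusted p 2.09e-05). Apod read 573.5, 506.2 and 570.7 in +/+ and 1302.1, 1149.8 and 1158.8 in -/- neurons, 2.19-fold higher (log2 change 1.13, SE 0.08, adjusted p 6.51e-08). For both genes every -/- array was above every +/+ array. Mgp, which had differed nearly as much in progenitors, read 425.2, 216.9 and 362.7 in +/+ and 465.3, 433.2 and 448.6 in -/- neurons, and its change of 0.48 (SE 0.24) did not pass (adjusted p 0.213).

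All 4 proteoglycans rose in -/- neurons. Decorin read 1710.5, 1471.5 and 1653.0 in +/+ and 3463.8, 3404.8 and 3513.3 in -/- neurons, 2.15-fold higher (log2 change 1.10, SE 0.14, adjusted p 7.12e-05). Lumican read 448.2, 430.7 and 472.9 in +/+ and 980.5, 794.6 and 749.6 in -/- neurons (log2 change 0.89, SE 0.19, adjusted p 0.00557). Biglycan rose by 0.84 (SE 0.10) and versican by 0.42 (SE 0.08). None of the 4 genes had overlapping groups.

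Among the glycoproteins, Postn read 1154.6, 961.3 and 1385.1 in +/+ and 2208.8, 2090.0 and 1948.3 in -/- neurons (log2 change 0.85, SE 0.11, adjusted p 5.99e-05). Fbln2, a fibulin of basement membranes and elastic fibres, rose by 0.71 (SE 0.10) after not passing in progenitors. Thbs2 read 183.3, 155.7 and 195.7 in +/+ and 365.7, 324.6 and 342.3 in -/- neurons (log2 change 0.95, SE 0.15, adjusted p 0.000426). In these genes the -/- arrays lay above all +/+ arrays. Tnc rose by 0.56 (SE 0.11), Mmp2 by 0.82 (SE 0.11), Lox by 0.80 (SE 0.16), Pcolce by 0.74 (SE 0.12), Emp1 by 0.62 (SE 0.11), Serpinf1 by 0.61 (SE 0.09) and Twist1 by 0.43 (SE 0.08).

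Prrx1 and Timp3, an inhibitor of metalloproteinases that binds to matrix, also rose, by 0.43 (SE 0.12, adjusted p 0.0273) and 0.48 (SE 0.13, adjusted p 0.0233), on less secure calls. The call of Prrx1 was lost without +/+ replicate 2 (adjusted p 0.13) or -/- replicate 1 (0.0516) or 3 (0.108). That of Timp3 was lost without +/+ replicate 1 (0.0555) or 2 (0.0939) or -/- replicate 1 (0.107). Other probe sets of Timp3 gave 0.14, 0.34 and 0.49, and the last 1 had an adjusted p of 0.000433 over all probe sets. Several members called in progenitors did not pass in neurons. These were Cd44 (log2 change -0.001), Fbln5 (0.04), Loxl1 (0.04), Thy1 (0.18), Fstl1 (0.21), Twist2 (0.23), Fn1 (0.37, adjusted p 0.103) and Mgp. Without +/+ replicate 3, Fn1 (0.55, adjusted p 0.0145) and Fstl1 (0.30, adjusted p 0.0137) passed.

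The CCN genes and Ankrd1 were lower in -/- neurons, having been higher in -/- progenitors. Ankrd1 read 95.0, 63.7 and 77.8 in +/+ and 41.4, 33.4 and 29.9 in -/- neurons, 2.21-fold lower (log2 change -1.15, SE 0.16, adjusted p 0.000151), with -/- replicates 2 and 3 under the background bound. Ccn2 read 3979.3, 3908.8 and 4394.1 in +/+ and 2413.4, 2016.1 and 1793.8 in -/- neurons, 1.99-fold lower (log2 change -0.99, SE 0.09, adjusted p 1.41e-06). Ccn1 read 861.9, 638.6 and 1088.6 in +/+ and 470.5, 468.0 and 366.1 in -/- neurons, 1.95-fold lower (log2 change -0.96, SE 0.15, adjusted p 0.000437). In all 3 genes the lowest +/+ array stood above the highest -/- array. All 4 probe sets of Ccn1 gave positive changes in progenitors and negative ones in neurons. The one at 0.38 in progenitors did not pass there (adjusted p 0.157 over all probe sets).

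Thbs1 and Timp1 were lower too, with overlapping groups. Thbs1 read 372.1, 212.6 and 531.1 in +/+ and 234.9, 210.0 and 187.8 in -/- neurons (log2 change -0.72, SE 0.22, adjusted p 0.0421). Timp1 read 161.4, 110.5 and 186.6 in +/+ and 122.2, 100.6 and 105.6 in -/- neurons (log2 change -0.45, SE 0.13, adjusted p 0.0311). The overlap came from +/+ replicate 2 in both genes. The Thbs1 call was lost without +/+ replicate 1 (adjusted p 0.12) or 3 (change -0.42, adjusted p 0.19) or any -/- replicate (0.0558, 0.106 and 0.128), and its change was -1.08 (adjusted p 0.000309) without +/+ replicate 2. The Timp1 call was lost without +/+ replicate 1 (0.113) or 3 (change -0.29, adjusted p 0.149) or -/- replicate 2 (0.125) or 3 (0.0859).

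Sparc and Serpinh1 were slightly lower in -/- neurons, as in progenitors. Sparc read 9662.6, 8698.2 and 9572.6 in +/+ and 8147.4, 7252.6 and 8036.9 in -/- neurons (log2 change -0.25, SE 0.06, adjusted p 0.00691). Serpinh1 read 4626.6, 4434.7 and 4649.0 in +/+ and 4281.5, 3875.3 and 4033.9 in -/- neurons (log2 change -0.17, SE 0.05, adjusted p 0.042). The Serpinh1 call was lost without +/+ replicate 1 (adjusted p 0.116), 2 (0.0502) or 3 (0.12) or -/- replicate 2 (0.169) or 3 (0.0964). When neuron arrays alone entered the fit, the adjusted p was 0.07 for Sparc, 0.127 for Serpinh1, 0.158 for Thbs1 and 0.159 for Timp1.

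Ankrd1 and Ccn1 are shown with the 250 bases before their annotated starts because they moved in opposite directions in progenitors and neurons, and because TEAD factors, the DNA-binding partners of YAP, recognise the letters GGAATG. Timp1 holds the same letters and Tgfbi, among the most raised genes in both cell types, does not. The sequences come from RefSeq, build GRCm38.p6, and are written 5′ to 3′ on the gene's strand. Capitals mark GGAATG on either strand (CATTCC when on the other strand) and TATAAA on the gene's strand.
Ankrd1, chr19:36119845-36120094, minus strand: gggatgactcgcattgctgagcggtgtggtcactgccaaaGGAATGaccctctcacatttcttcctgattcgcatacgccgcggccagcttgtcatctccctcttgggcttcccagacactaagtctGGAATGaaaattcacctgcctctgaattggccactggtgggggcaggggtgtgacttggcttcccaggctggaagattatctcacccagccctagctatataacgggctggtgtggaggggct
Ccn1, chr3:145649986-145650235, minus strand: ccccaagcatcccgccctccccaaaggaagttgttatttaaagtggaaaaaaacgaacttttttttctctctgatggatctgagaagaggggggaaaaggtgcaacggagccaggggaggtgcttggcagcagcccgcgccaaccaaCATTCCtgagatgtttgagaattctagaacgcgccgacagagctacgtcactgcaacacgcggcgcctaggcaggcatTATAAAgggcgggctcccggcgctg
Timp1, chrX:20869916-20870165, plus strand: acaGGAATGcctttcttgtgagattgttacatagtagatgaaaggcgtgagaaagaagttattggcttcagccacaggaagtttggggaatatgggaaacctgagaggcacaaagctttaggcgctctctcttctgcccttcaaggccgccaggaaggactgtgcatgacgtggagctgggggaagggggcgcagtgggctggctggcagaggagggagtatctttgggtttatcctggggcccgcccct
Tgfbi, chr13:56609336-56609585, plus strand: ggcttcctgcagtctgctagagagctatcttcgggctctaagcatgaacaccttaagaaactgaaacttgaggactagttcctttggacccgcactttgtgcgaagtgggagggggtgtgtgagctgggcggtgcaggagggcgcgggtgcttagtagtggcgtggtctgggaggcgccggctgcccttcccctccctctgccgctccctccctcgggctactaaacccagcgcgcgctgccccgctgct

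In the Ankrd1 window GGAATG lies at -210 to -205 and again at -123 to -118 from the start, in the Ccn1 window at -103 to -98, with TATAAA at -25 to -20, and in the Timp1 window at -247 to -242. Promoters were on hand for 25 of the tested members, as 30 windows. Of these windows 4, or 13.3%, hold GGAATG on either strand (those of Ankrd1, Ccn1, Timp1 and Prrx1), against 12.6% of 32851 promoter windows of the same length. The AP-1 site TGANTCA was in 3.33% of the member windows and 6.75% of all, and the CArG box in 0 of 30 against 1.47%. TATAAA was in 20% against 7.59%. Its member windows belong to 5 of the 25 members, since overlapping windows of Tnc hold the same TATAAA. These matches describe letters only, and the windows of Ccn2 and Thbs1 were not on hand.

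Outside the members, the lists in neurons were as follows. Of the 36 other glycoproteins and proteoglycans tested, 16 were higher and 1 lower in -/- neurons (median 0.36 against -0.024 over all genes), led by Ccn3 (1.57), the small proteoglycan gene Aspn (1.24) and Efemp1 (1.11), which encodes a fibulin. Ccn3, a relative of Ccn1 and Ccn2, thus rose where those fell. Of the 17 mesenchymal transcription factors, 6 were higher and none lower (median 0.18), with Foxd1 at 1.48, Foxc1 at 1.04 and Tbx18 at 0.94. Of 36 enzymes and inhibitors, 5 were higher and 4 lower (median 0.04), of 26 receptors 4 higher and 1 lower (median 0.10), and of 20 genes of TGF-beta signalling 2 higher and none lower (median 0.03).

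The YAP and TEAD list had 2 of 18 genes higher and 3 lower in -/- neurons (median 0.03). Amotl2 and Ajuba, regulators of that pathway, fell by 0.42 and 0.36, and Wwtr1, which encodes TAZ, rose by 0.36. Smooth muscle and pericyte markers moved the same way as Ankrd1 and the CCN genes: they summed to 5423.7 to 10220.4 per +/+ array and 3427.1 to 4746.7 per -/- neuron array. Cnn1 was at -1.09, Acta2 at -0.96 and Tagln at -0.94. For Cnn1 all -/- neuron arrays were under the background bound, so its size is uncertain. The lowest +/+ sum was again that of replicate 2. Fibroblast markers moved the other way, from 14247.1 to 16135.6 in +/+ to 21098.6 to 24948.2 in -/- neurons, and endoderm markers, of which 5 of 8 were lower and none higher, summed to 5160.1 to 8137.1 and 4608.2 to 5377.8. Of 4 dopaminergic markers, 3 were higher and none lower in -/- neurons (Ddc 1.63, Th 1.25 and Slc6a3 0.82), with sums of 911.5 to 996.5 in +/+ and 2045.8 to 2140.8 in -/- neurons. The part of these cell types in the differences of the members was not tested.

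The step from progenitors to neurons in +/+ cells raised 10 members and lowered 20, against 34.6% and 44.4% of all genes, with a median of -0.23 against -0.113 over all genes. Lox read 175.9, 190.3 and 211.0 in +/+ progenitors and 731.5, 518.4 and 831.0 in neurons, a log2 change of 1.82 (SE 0.16, adjusted p 1.72e-08). Decorin rose by 1.42 (SE 0.14) and elastin by 1.23 (SE 0.12), the latter from 73.6, 65.5 and 60.7 to 182.7, 135.2 and 158.3. Fbln5 rose from 190.3, 209.9 and 193.8 to 409.1, 283.4 and 441.1 (0.90, SE 0.16). The neuron arrays lay above the progenitor arrays in each case. The elastin value depends on the probe set: its other one gave -0.07, and the mean of all its probe sets 0.58. Of the 8 glycoproteins and elastic fibre proteins, 3 rose and 4 fell (median -0.26), among the latter Mfap5 (-0.75, SE 0.18) and Fbln1 (-0.61, SE 0.09). Mfap5 was under the background bound on all +/+ neuron arrays. Measured from the bound, its fall was at least 1.09-fold, and its other probe set gave -0.19. Loxl1 (0.04), a cross-linking enzyme like Lox, did not pass.

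The members that fell included no proteoglycan. Timp1 read 616.9, 606.9 and 623.2 in +/+ progenitors and 161.4, 110.5 and 186.6 in neurons, 4.10-fold lower (log2 change -2.04, SE 0.13, adjusted p 2.36e-10). S100a4 read 468.6, 479.9 and 489.0 in progenitors and 144.6, 118.7 and 167.9 in neurons (log2 change -1.74, SE 0.12, adjusted p 1.02e-09). Thbs1 fell by 1.76 (SE 0.22), Ankrd1 by 1.55 (SE 0.16) and Fn1 by 1.51 (SE 0.14). The groups were apart for these genes. Without the low +/+ neuron replicate 2, 12 members rose and 17 fell.

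In -/- cells the same step raised 9 members and lowered 24, against 35.2% and 45.6% of all genes, and the median of the members was -0.54 against -0.133. In this step 17 members changed by 2-fold or more, against 8 in +/+ cells. How many of all genes did so in either genotype was not counted. Thbs1 fell by 2.96 (SE 0.22), Timp1 by 2.62 (SE 0.13), Ccn1 by 2.35 (SE 0.15) and Ccn2 by 1.70 (SE 0.09). Ankrd1 fell by 3.74 (SE 0.16), a size that rests on -/- neurons where only 1 of 3 arrays was above the background bound. All 7 members grouped here as matricellular fell in this step, whereas Postn, which is grouped with the glycoproteins but is often counted as matricellular, rose by 0.82 (SE 0.11). The call of Thbs2 was lost without progenitor -/- replicate 2 (adjusted p 0.0805) or 3 (0.0566) or neuron -/- replicate 2 (0.068), and that of Tnc without neuron -/- replicate 1 (0.0515) or 2 (0.0522). Decorin and Lox rose by 1.86 (SE 0.14) and 1.87 (SE 0.16), beside 1.42 and 1.82 in +/+ cells.

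Whether the genotype difference itself changed between cell types was tested as an interaction. The difference in progenitors exceeded that in ES cells for 22 of 37 members and was smaller for none, against 5.71% and 10.6% of all genes, with a median of 0.71 against -0.045. The difference in neurons was lower than that in progenitors for 13 members and higher for 1, against 5.41% and 5.67% of all genes (median -0.24 against -0.02). Among them were Ccn1 (-1.53, SE 0.22), Mgp (-1.51, SE 0.33) and Ccn2 (-1.47, SE 0.12), and Ankrd1 (-2.19, SE 0.23), whose size rests on the dim -/- neurons, and Fbln2 was the member that gained (0.57, SE 0.15). No proteoglycan passed in the interaction of neurons and progenitors, with changes of -0.24 to 0.45. These interactions share arrays with the comparisons they are built from.

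Some members did not pass in any genotype comparison. These were Eln, Fbln1, Mfap5 and S100a4, with log2 changes from -0.28 to 0.29 over the 3 cell types. Fbln1, an elastic fibre and basement membrane protein, read 460.4, 521.4 and 490.8 in -/- progenitors against 493.5, 517.3 and 470.5 in +/+ ones, and the genotypes overlapped in all 3 cell types. S100a4 fell between progenitors and neurons in each genotype, by 1.74 in +/+ and 1.82 in -/- cells.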

How the data were processed

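Per the submitters' processing notes the authors used RMA and limma; the versions were not given in the sources used here. The deposited table holds linear intensity values, 1 for each probe set and array. All columns belonged to a described sample (0 did not). Arrays have no counting depth, so their number, 3 per group, limits the precision. Of 45101 probe sets, 64 were controls, 34945 had 1 gene symbol in the platform annotation, 932 several and 9160 none. Gene calls used only those with 1 symbol that reached the 40th percentile of their array on at least 3 of 18 arrays (26311). Each gene took its probe set with the highest mean.

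Values were taken to log2(intensity + 1), a pseudocount of 1 that understates the changes of dim genes, and fitted with limma 3.58.1 in R 4.3.3 on 6 group means (12 residual degrees of freedom). Calls are at a Benjamini-Hochberg adjusted p under 0.05 over 14432 genes. Changes of 2-fold or more were counted for the members only, so these counts have no share of all genes beside them. The script was tested on simulated data. The members, gene lists and markers were chosen with earlier results of these data known. Array values are given for up to 6 called members per direction in each genotype comparison and up to 4 in each +/+ step, by size of change, and up to 3 called genes per list are named. An "at least" fold sets a dim group at its arrays' background bound. Replicate numbers did not pair the arrays (correlations of deviations from -0.138 to 0.116). Alternatives were the arrays fitted, scaling, pseudocount, filter, probe set rule, array weights, a replicate block and leaving out each array.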

Additional observations from a re-analysis of the deposited data

Results flagged for a closer look

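For 36 results the genotype difference changed between cell types by the interaction test (limma, adjusted p under 0.05 over all tested genes). The values are log2 differences between 2 genotype differences.

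Between ES cells and progenitors the difference moved upward for 22 members. Among secreted and surface proteins these were Apod (2.17), Cd44 (1.21), Emp1 (1.18) and Thy1 (0.93), and among the regulators Ankrd1 (1.63), Twist1 (0.76) and Prrx1 (0.74). The glycoproteins were Tgfbi (1.74), Fbln5 (1.38), Postn (0.88), Fn1 (0.71) and Eln (0.50), and the matricellular proteins Fstl1 (1.06), Thbs2 (1.03) and Tnc (0.56). Proteoglycans were Bgn (1.26) and Vcan (0.39), assembly proteins Pcolce (1.34) and Loxl1 (0.96), and the remaining members Mgp (1.86), Serpinf1 (0.91) and Mmp2 (0.62). For Ankrd1, Fbln5, Postn, Mgp and Prrx1 all -/- ES arrays were under the background bound, and for Prrx1 all +/+ ES arrays too. The ES part of their sizes is therefore uncertain. The call of Eln (adjusted p from 0.0532 to 0.116) was lost without any of the arrays compared except ES -/- replicate 1 and progenitor +/+ replicate 1, and also with median centring (0.0552), a pseudocount of 16 (0.0542), no filter (0.0579) or array weights (0.0617). That of Fn1 was lost without ES +/+ replicate 1 (0.0527), progenitor +/+ replicate 1 (0.0529) or 2 (0.051) or progenitor -/- replicate 3 (0.0544). That of Tnc was lost without progenitor +/+ replicate 1 (0.0528) or 3 (0.0553), and that of Vcan without progenitor +/+ replicate 2 (0.0519) or -/- replicate 3 (0.0532).

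Between progenitors and neurons the difference moved downward for 13 members and upward for 1. The regulators were Ankrd1 (-2.19) and Twist1 (-0.51), and the matricellular proteins Ccn1 (-1.53), Ccn2 (-1.47), Thbs1 (-1.20) and Fstl1 (-0.38). The others that moved downward were Mgp (-1.51), Thy1 (-1.05), Apod (-1.03), Fbln5 (-0.94), Cd44 (-0.90), Tgfbi (-0.75) and Loxl1 (-0.67), and Fbln2 (0.57) moved upward. The Thbs1 call was lost without progenitor +/+ replicate 1 (adjusted p 0.052) or neuron -/- replicate 3 (0.0541). That of Tgfbi was lost without neuron +/+ replicate 1 (0.0509) or 3 (0.0521) or neuron -/- replicate 2 (0.0538), and that of Fbln2 without progenitor +/+ replicate 2 (0.0524). The Fstl1 call was lost without any array compared except neuron +/+ replicate 2, neuron -/- replicate 1 and progenitor -/- replicate 3 (adjusted p from 0.0503 to 0.0754), and that of Loxl1 without any except neuron +/+ replicate 2 and neuron -/- replicate 1 (0.0509 to 0.0852). With the mean of all probe sets Loxl1 was at -0.35 (adjusted p 0.0942) here, and between ES cells and progenitors Loxl1 was at 0.53, Emp1 at 0.60 and Vcan at 0.59. The -2.19 of Ankrd1 rests on -/- neurons where 1 of 3 arrays was above the background bound. Without neuron +/+ replicate 2, the array that read low for these genes, Timp1 (-0.80, adjusted p 0.000293), Fn1 (-0.58, 0.00527) and Pcolce (-0.49, 0.00833) passed as well.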

How the results depend on the processing

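The calls of the members rest on 3 arrays per group and on 1 probe set per gene, and dim genes in ES cells have only a bound. Of 227 called pairs of a member and a comparison, 219 stayed called with only the arrays of the compared cell types in the fit, 221 with the mean of all probe sets and 224 to 227 under the other settings of the whole table. With 1 array left out, 1473 of 1578 stayed called. The genotype difference in ES cells moved most: 4 members were called, 1 with the compared arrays alone, and 2 to 5 with 1 array left out. The ranges with 1 array left out were 26 to 28 for the genotype in progenitors and 21 to 24 in neurons. They were 34 to 34 and 36 to 37 for progenitors against ES cells, 27 to 29 and 30 to 33 for neurons against progenitors (+/+ and -/-), and 19 to 24 and 11 to 17 for the interactions. With the mean of all probe sets Fn1 turned sign for progenitors against ES cells, to -1.05 in +/+ and -0.29 in -/- cells, since another of its probe sets fell in both steps. The replicate numbers did not pair the arrays. With the replicate block the counts of members called were 4, 28 and 23 for the genotype in ES cells, progenitors and neurons, 34 and 37 for progenitors against ES cells, 29 and 33 for neurons against progenitors, and 22 and 15 for the interactions.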
